A study of Homo sapiens with 8 samples.

Results

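The genes described are 45 mesenchymal, matrix and actin-linked genes, listed by symbol and looked up in an RNA-seq and a Ribo-seq count table. Of these 45, 43 are listed among the 17927 genes of the RNA-seq table and 42 among the 14019 genes of the Ribo-seq table. By role they were split into 15 matrix genes, 12 actin and contractile genes, 7 transcription factors or coactivators, and 11 surface and other genes. The low-count filter passed 40 members in RNA-seq and 39 in Ribo-seq. MYL9 and CCN2 were not analysed here in either assay, and TPM2 was not analysed in Ribo-seq.

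The cells are SH-SY5Y, an established human neuroblastoma line. Cells with a short hairpin RNA (shRNA) against RPS29, a protein of the small ribosomal subunit, were compared with cells carrying a control shRNA. RNA-seq measured total RNA, and Ribo-seq measured RNA fragments protected by ribosomes (footprints). Each assay had 2 knockdown and 2 control libraries, and each assay had its own extraction protocol. The labels give no separate hairpins, clones, cultures, times or doses, so p-values measure the spread between these libraries, which may be technical.

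RNA-seq libraries held 17539104 to 19156104 counts, and Ribo-seq libraries 2630463 to 4375971. In Ribo-seq the 4 most counted genes of a library took 35.3% and 52.3% of its counts in the knockdown. In the Ribo-seq controls they took 45.9% and 51.6%, and in RNA-seq 2.73% to 3.16%. RPS29 RNA had 147 and 117 counts in the knockdown libraries, against 2430 and 2872 in the controls (log2 fold change -4.40, SE 0.115, edgeR adjusted p = 6.32e-12). Spearman correlations between libraries, across genes, were 0.985 to 0.993 in RNA-seq and 0.455 to 0.827 in Ribo-seq. In Ribo-seq, knockdown replicate 1 stood apart from the controls (0.528 and 0.455), so the footprint medians of the role groups are also given without it. Of 12 noradrenergic neuroblastoma markers 11 were at 1 CPM (counts scaled to library size with TMM factors) or more in every RNA-seq library. Their summed level was 7613 and 7574 CPM in the knockdown libraries, against 7270 and 7501 CPM in the controls.

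Neuroblastoma cells are known in a noradrenergic and a mesenchymal state. The mesenchymal state is marked by vimentin, fibronectin, collagens and factors such as PRRX1, and SH-SY5Y is usually classed as noradrenergic. Contractile genes such as ACTA2 and TAGLN are classic targets of serum response factor (SRF), which binds a DNA motif called the CArG box. CCN1 and CCN2 are classic targets of the coactivators YAP1 and WWTR1 (TAZ), which act through TEAD factors.

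The first comparison asked which of these RNAs differed after the knockdown. Of 40 members tested, 14 rose and 8 fell (edgeR quasi-likelihood test, adjusted p below 0.05 over all genes). Over all 14723 genes tested, 14.4% were called higher and 16.3% lower. At an unadjusted p below 0.05, 17 members were higher and 9 lower, against 19.7% and 20.8% of all genes. In 19 members both knockdown libraries were above both controls and in 12 both were below, against 32.3% and 32.9% of all genes. The members' median log2 fold change was 0.13, against 0.01 over all genes. All changes were moderate: the fitted values of tested members lay between -0.59 and 0.77, and against a 1.5-fold change no member was called, where 69 of all 14723 genes were higher and 167 lower. Without control replicate 1 the members' counts were 6 higher and 4 lower, and those of all 15149 genes tested were 1225 and 1517. Without control replicate 2 they were 8 and 4 for members, and 1238 and 1496 for all 15189 genes, so calls were fewer across the table too.

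**Figure D1:**
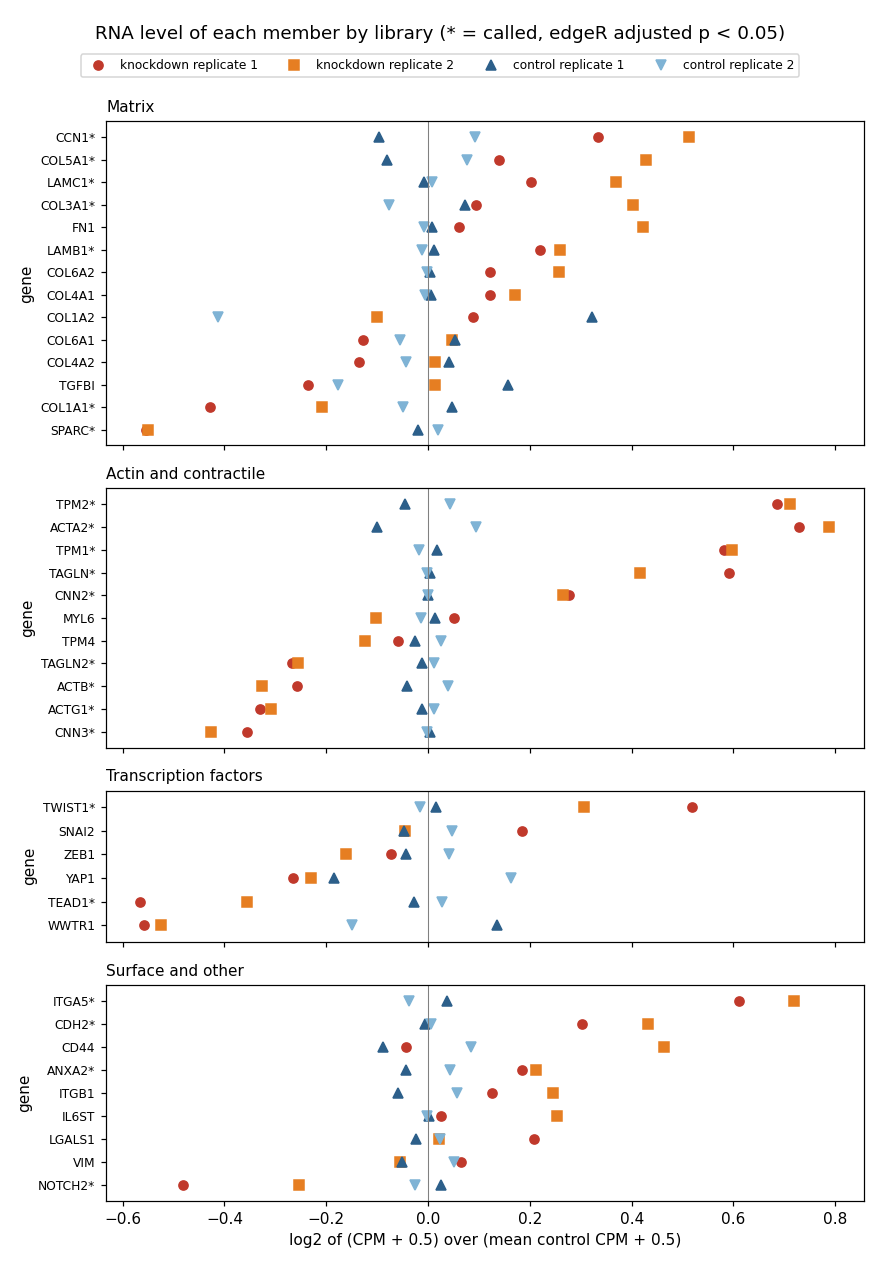
RNA level of each tested member in each library, as the log2 of its CPM over the mean of the 2 controls (0.5 added to both), with genes grouped by role and an asterisk for called genes. Among contractile genes, TPM2, ACTA2, TPM1, TAGLN and CNN2 lie to the right of the controls in both knockdown libraries, and TAGLN2, ACTB, ACTG1 and CNN3 to the left.

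The contractile genes went in both directions. Of 11 tested, 5 rose (ACTA2, TAGLN, CNN2, TPM1 and TPM2) and 4 fell (ACTB, ACTG1, TAGLN2 and CNN3), with a median log2 fold change of -0.02. Without either control replicate, 3 were higher and 1 lower. With all libraries, 14.4% of all genes were called higher and 16.3% lower. ACTA2 encodes smooth muscle actin, the marker of myofibroblasts. It was at 43.7 and 45.6 CPM in the knockdown libraries, against 24.4 and 28.0 CPM in the controls (log2 fold change 0.77, SE 0.0992, adjusted p = 5.01e-05). TPM1, a tropomyosin that lies along actin filaments, was at 299.1 and 302.3 CPM in the knockdown libraries, against 202.2 and 197.4 CPM in the controls (0.59, SE 0.0680, adjusted p = 1.88e-05). TAGLN, the actin-binding protein transgelin or SM22, was at 25.7 and 22.7 CPM in the knockdown libraries, against 16.9 and 16.8 CPM in the controls (0.52, SE 0.116, adjusted p = 0.00336). In all 3 genes both knockdown libraries were above both controls, as in 32.3% of all genes, and the call held without any single library.

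TPM2, another tropomyosin, had 114 and 108 counts in the knockdown libraries, against 59 and 64 in the controls (log2 fold change 0.77, SE 0.231, edgeR adjusted p = 0.0194). CNN2, calponin 2, was at 71.7 and 71.1 CPM in the knockdown libraries, against 59.1 and 59.1 CPM in the controls (0.27, SE 0.0774, adjusted p = 0.0150). Both calls ended without either control replicate, and TPM2 was not called with DESeq2 (adjusted p = 0.0555). The replicates of these genes lay close together, and the groups did not overlap. In 32.3% of all genes both knockdown libraries were likewise above both controls.

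The 4 that fell are members of the same protein families. ACTB, the cytoplasmic beta-actin, was at 4446 and 4237 CPM in the knockdown libraries, against 5166 and 5460 CPM in the controls (log2 fold change -0.29, SE 0.0847, edgeR adjusted p = 0.0170). ACTG1, the cytoplasmic gamma-actin, was at 1965 and 1995 CPM in the knockdown libraries, against 2450 and 2491 CPM in the controls (-0.32, SE 0.0783, adjusted p = 0.00638). TAGLN2, transgelin 2, was at 388.4 and 391.5 CPM in the knockdown libraries, against 463.8 and 471.8 CPM in the controls (-0.26, SE 0.0694, adjusted p = 0.0101). These 3 calls ended without either control replicate. CNN3, calponin 3, was at 227.6 and 216.6 CPM in the knockdown libraries, against 291.9 and 290.7 CPM in the controls (-0.39, SE 0.0688, adjusted p = 6.08e-04), and kept its call without any single library. TPM4 (-0.09, adjusted p = 0.373) and MYL6, a myosin light chain (-0.02, adjusted p = 0.839), were not called.

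Ratios of family members within a library do not depend on how libraries are scaled. The pairs were chosen after the values were seen, so they are a description. Per 100 counts of ACTB and ACTG1 together, ACTA2 had 0.682 and 0.731 counts in the knockdown libraries, against 0.320 and 0.352 in the controls, a 2.10-fold higher ratio. Per 100 TAGLN2 counts, TAGLN had 6.61 and 5.79 in the knockdown libraries, against 3.64 and 3.57 in the controls. The ratio was thus 1.72-fold higher, and no library of one group reached the other. Per 100 CNN3 counts, CNN2 had 31.5 and 32.8 in the knockdown libraries, against 20.3 and 20.3 in the controls. Per 100 TPM4 counts, TPM1 had 55.5 and 58.7 in the knockdown libraries, against 36.7 and 34.6 in the controls. ACTB per 100 ACTG1 counts overlapped between groups, with 226.3 and 212.4 in the knockdown libraries, against 210.8 and 219.2 in the controls.

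**Figure D2:**
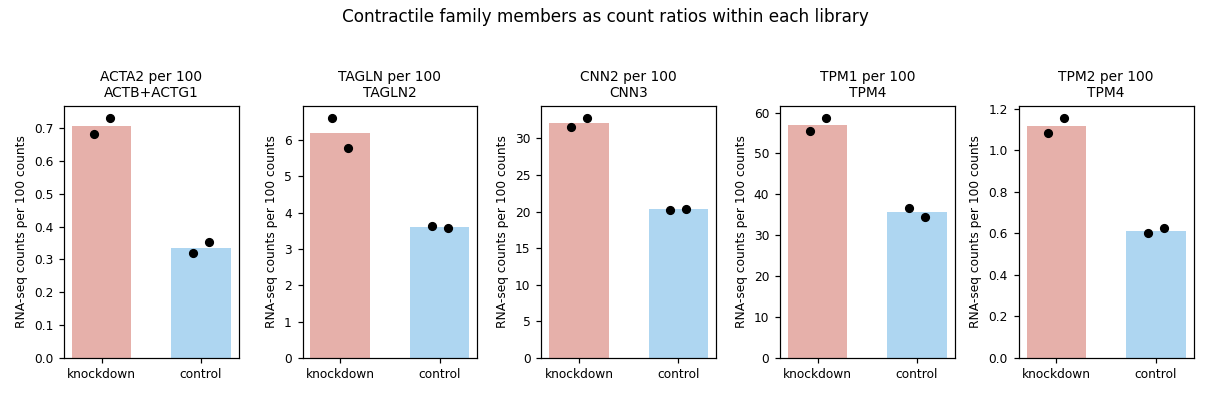
RNA-seq counts of 5 contractile genes per 100 counts of a family member in the same library, with dots for the 2 libraries of a group and bars for their mean. In each panel both knockdown libraries are above both controls, by 2.10-fold for ACTA2 and 1.58-fold for CNN2 in the group means.

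ACTA2 (chr10:88935074-88991337, GRCh38.p14) shares 27288 bases of its span with FAS, a death receptor. FAS RNA had 192 and 178 counts in the knockdown libraries, against 56 and 61 in the controls (log2 fold change 1.58, edgeR adjusted p = 4.37e-05). TAGLN (chr11:117199294-117207465) shares 3129 bases with PCSK7, a proprotein convertase (log2 fold change 0.34, adjusted p = 0.00913). The library kit keeps strand, but whether counting used it is not given in the sources used here, and the neighbours' part in these 2 increases was not tested. ACTG1 has pseudogene copies in the table, of which ACTG1P25 had the most counts (79 and 65 in the knockdown libraries, against 67 and 87 in the controls).

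Because contractile genes are classic SRF targets, the promoters of the members (250 bases before to 50 after the start site, RefSeq, GRCh38.p14) were searched for the CArG box on both strands. Among 33 members whose promoter RefSeq gave, the box was in 3, all of them contractile genes (3 of 9), against 1.29% of 35116 promoters. The 3 behaved differently in RNA: CNN2 rose, ACTG1 fell and TPM4 was not called. ACTA2 and TAGLN are not among the matches. A member without a match had either no promoter given or no exact match near the start site used. The search therefore does not show that such a gene lacks a CArG box. The TEAD motif GGAATG, searched on both strands, was in 6 of 33 members and 14.0% of all promoters. No member's promoter held both motifs, so they did not overlap. The sequences below run up to the base before the start site, with the CArG box (first 3) or the GGAATG motif on either strand (last 2) in capitals. They were chosen after the RNA values were seen, and are shown because the same motif stands beside RNAs that rose and RNAs that fell. ACTG1 is at chr17:81512800-81512933 on the minus strand, CNN2 at chr19:1026479-1026607 and TPM4 at chr19:16067325-16067537 on the plus strand. ITGA5 is at chr12:54419267-54419388 and SPARC at chr5:151686916-151687015, both on the minus strand. A match is a description of these letters and not a bound site.
ACTG1: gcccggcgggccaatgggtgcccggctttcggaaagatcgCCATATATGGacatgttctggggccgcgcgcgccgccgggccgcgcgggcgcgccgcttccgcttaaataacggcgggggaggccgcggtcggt
CNN2: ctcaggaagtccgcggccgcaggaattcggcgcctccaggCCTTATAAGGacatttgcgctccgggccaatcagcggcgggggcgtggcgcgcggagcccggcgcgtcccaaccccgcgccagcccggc
TPM4: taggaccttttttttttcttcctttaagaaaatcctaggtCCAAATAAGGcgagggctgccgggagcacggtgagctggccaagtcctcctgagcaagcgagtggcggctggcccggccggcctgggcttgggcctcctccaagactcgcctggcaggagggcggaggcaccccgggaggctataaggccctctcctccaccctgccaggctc
ITGA5: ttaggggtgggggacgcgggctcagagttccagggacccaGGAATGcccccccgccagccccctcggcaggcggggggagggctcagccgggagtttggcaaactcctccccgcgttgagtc
SPARC: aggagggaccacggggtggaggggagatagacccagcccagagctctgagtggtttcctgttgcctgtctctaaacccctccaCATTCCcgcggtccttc

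Matrix genes moved by small steps. Of 14 tested, 5 rose (CCN1, COL5A1, LAMC1, COL3A1 and LAMB1) and 2 fell (SPARC and COL1A1), with a median log2 fold change of 0.17. With knockdown replicate 2 left out 3 were higher, with control replicate 1 left out 0, and with control replicate 2 left out 2. The number lower was 1 without knockdown replicate 1 or either control. The shares over all genes, with all libraries, were 14.4% higher and 16.3% lower. SPARC, a secreted matrix protein that binds collagen, had the clearest change, with 188.8 and 189.5 CPM in the knockdown libraries, against 273.7 and 281.6 CPM in the controls (log2 fold change -0.55, SE 0.0680, edgeR adjusted p = 3.34e-05). It was called without any single library. CCN1, a matricellular protein and YAP1 target, was at 34.0 and 38.5 CPM in the knockdown libraries, against 25.1 and 28.6 CPM in the controls (0.43, SE 0.107, adjusted p = 0.00684). That call ended without control replicate 1 (0.34, adjusted p = 0.104).

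The laminin chains LAMB1 and LAMC1, which join in one basement membrane trimer, rose together. LAMB1 was at 336.1 and 345.4 CPM in the knockdown libraries, against 291.2 and 286.3 CPM in the controls (log2 fold change 0.24, SE 0.0687, edgeR adjusted p = 0.0159). LAMC1 was at 266.8 and 299.8 CPM in the knockdown libraries, against 230.6 and 233.3 CPM in the controls (0.29, SE 0.0745, adjusted p = 0.00881). In both genes the knockdown libraries were above both controls, as in 32.3% of all genes, but both calls ended without either control replicate. Their ratio hardly differed, with 126.0 and 115.2 LAMB1 counts per 100 of LAMC1 in the knockdown libraries, against 126.2 and 122.7 in the controls.

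The collagens of fibrils did not move as one. COL1A1, the alpha 1 chain of type I collagen, was at 19.1 and 22.3 CPM in the knockdown libraries, against 26.8 and 25.0 CPM in the controls (log2 fold change -0.32, edgeR adjusted p = 0.0452). COL3A1, the type III collagen chain, was at 217.4 and 269.5 CPM in the knockdown libraries, against 214.2 and 193.1 CPM in the controls (0.26, adjusted p = 0.0481). COL5A1, of type V collagen, was at 69.8 and 85.4 CPM in the knockdown libraries, against 59.8 and 66.8 CPM in the controls (0.29, adjusted p = 0.0349). All 3 lie near the threshold. The call of COL1A1 ended without knockdown replicate 1 or either control, that of COL3A1 without knockdown replicate 2 or either control, and that of COL5A1 without knockdown replicate 2 or control replicate 1. Counts of COL1A1 per 100 of COL3A1 were 8.79 and 8.29 in the knockdown libraries, against 12.5 and 13.0 in the controls.

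Of the basement membrane and beaded-filament collagens none was called. COL4A1 (log2 fold change 0.15, edgeR adjusted p = 0.172) and COL4A2 (-0.06, adjusted p = 0.607) are neighbouring genes whose products form type IV collagen. COL4A1 counts per 100 of COL4A2 were 61.6 and 57.5 in the knockdown libraries, against 50.3 and 52.8 in the controls, without overlap. COL6A1 was at -0.04 (adjusted p = 0.772) and COL6A2, of the same type VI collagen, at 0.19 (adjusted p = 0.0627). FN1, fibronectin, had 148.4 and 190.7 CPM in the knockdown libraries, against 143.0 and 141.4 CPM in the controls (0.25, SE 0.0963, adjusted p = 0.0595). The knockdown replicates of FN1 lay further apart than the lower one did from the controls.

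Among transcription regulators, TWIST1 rose and TEAD1 fell, and the other 4 tested were not called. TWIST1, a basic helix-loop-helix factor of mesenchymal and neural crest cells, was at 443.6 and 382.9 CPM in the knockdown libraries, against 312.8 and 305.9 CPM in the controls (log2 fold change 0.42, SE 0.0794, edgeR adjusted p = 0.00109). TEAD1, a DNA-binding partner of YAP1, was at 92.1 and 106.5 CPM in the knockdown libraries, against 133.9 and 139.2 CPM in the controls (-0.46, SE 0.0812, adjusted p = 6.25e-04). Both were called without any single library. WWTR1, the coactivator TAZ, had 86 and 82 counts in the knockdown libraries, against 132 and 108 in the controls (-0.59, SE 0.219, adjusted p = 0.0539), just outside the threshold. YAP1 (-0.26, adjusted p = 0.270), the zinc finger repressor ZEB1 (-0.12, adjusted p = 0.303) and SNAI2, the repressor Slug (0.08, adjusted p = 0.748), were not called. The median of the 6 was -0.19. Having 1 of 6 called each way is near the 14.4% higher and 16.3% lower of all genes.

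Surface and other members had 3 higher and 1 lower of 9 tested, with a median log2 fold change of 0.19. With knockdown replicate 1 left out 6 were higher, and with knockdown replicate 2 left out 5. Of all genes, 14.4% were called higher and 16.3% lower with all libraries. ITGA5, the integrin chain that binds fibronectin, had 234 and 235 counts in the knockdown libraries, against 140 and 134 in the controls (log2 fold change 0.70, SE 0.155, edgeR adjusted p = 0.00329). Its partner ITGB1 was at 597.4 and 649.4 CPM in the knockdown libraries, against 526.0 and 569.9 CPM in the controls, and was not called (0.19, adjusted p = 0.0828). CDH2, N-cadherin, was at 175.5 and 192.1 CPM in the knockdown libraries, against 141.6 and 142.7 CPM in the controls (0.37, SE 0.0729, adjusted p = 0.00141). NOTCH2, a receptor linked to the mesenchymal state, was at 72.7 and 85.1 CPM in the knockdown libraries, against 103.4 and 99.8 CPM in the controls (-0.37, SE 0.0852, adjusted p = 0.00461). These 3 calls held without any single library.

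NOTCH2 has near-identical partial copies whose reads counting may split. NOTCH2NLA had 6 and 11 counts in the knockdown libraries, against 9 and 14 in the controls, and NOTCH2NLC had 31 and 17, against 17 and 15. NOTCH2 itself had 1418 and 1543 counts in the knockdown libraries, against 1835 and 1791 in the controls, far above both copies. ANXA2, a membrane-binding annexin, was at 165.2 and 168.4 CPM in the knockdown libraries, against 140.9 and 149.7 CPM in the controls (log2 fold change 0.20, edgeR adjusted p = 0.0451), a call that ended without either control. VIM, the intermediate filament protein vimentin and a marker of the mesenchymal state, did not separate the groups. It was at 671.4 and 618.5 CPM in the knockdown libraries, against 619.6 and 665.0 CPM in the controls (0.01, SE 0.0769, adjusted p = 0.964). LGALS1, galectin 1 (0.12, adjusted p = 0.272), IL6ST, the cytokine receptor chain gp130 (0.14, adjusted p = 0.211), and CD44, the hyaluronan receptor (0.24, adjusted p = 0.313), were not called.

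Several members that mark mesenchymal cells had almost no RNA. PRRX1, a homeobox factor of the mesenchymal state, had 10 and 5 counts in the knockdown libraries, against 0 and 5 in the controls. ANXA1 had 1 and 2 counts in the knockdown libraries, against 4 and 2 in the controls, and CAV1, the caveolae protein, had 2 and 1, against 2 and 0. These 3 did not pass the filter and no change was tested. COL1A2, the partner chain of COL1A1 in type I collagen, had 21 and 16 counts in the knockdown libraries, against 24 and 11 in the controls (log2 fold change 0.00, SE 0.523). TGFBI, a matrix protein induced by TGF-beta, had 32 and 37 counts in the knockdown libraries, against 41 and 31 in the controls (-0.14, SE 0.353).

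Other genes of the same pathways gave the following counts, in lists chosen with earlier results of these data known. For every list of RNAs from here on, the shares over all genes were 14.4% called higher and 16.3% lower. A count near these shares is not a result about its list. Of 23 other matrix proteins tested 4 rose and 5 fell, with TIMP1 at 0.68 and TIMP2 at -0.92, both inhibitors of matrix metalloproteinases, and LAMA1 at -0.73. The median was -0.13, against 0.01 over all genes. Of 16 collagen processing genes 5 rose and 1 fell, with the procollagen enhancer PCOLCE at 0.48, the lysyl hydroxylase PLOD3 at 0.39 and the procollagen protease ADAMTS2 at -0.89. Of 25 other actin and contractile genes 1 rose and 8 fell. The one that rose was ZYX, zyxin of focal adhesions (0.71), while MYH10, a nonmuscle myosin (-0.45), and MYLK, myosin light chain kinase (-0.77), fell.

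Of 13 SRF and MRTF factors and targets 5 rose and 1 fell, with EGR1 at 1.44, CCN1, itself a member, at 0.43 and the coactivator MRTFB at -0.38. The list's median log2 fold change was 0.32. SRF itself (0.11) and the coactivator MRTFA (0.21) were not called. The contractile members, which rose and fell, are not in this list, so its counts and median depend on the genes chosen. Of 20 Hippo pathway genes and TEAD targets 1 rose and 7 fell (edgeR adjusted p below 0.05), among them TEAD2 (-0.89), AMOT (-0.85) and VGLL4 (-0.54), with a median of -0.23. TEAD2 belongs to the same factor family as TEAD1, AMOT binds YAP1 and VGLL4 competes with it for TEAD. The one that rose was TEAD4 (0.42), of the same family, and TEAD3 (-0.34) was not called. The TEAD targets ANKRD1 (0.25), F3 (0.76) and AXL (-0.37), at 32 counts or fewer per library, were not called either. Of 16 TGF-beta genes 6 rose and 3 fell. BAMBI (0.83), SMAD7 (0.57) and SMAD6 (0.49), all inhibitors of the pathway, were among those that rose. So were SMAD2 (0.27), which carries its signal, and the ligand TGFB1 (0.33). Those that fell were TGFB2 (-0.82), LTBP1 (-0.77) and SMAD4 (-0.22).

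Of 13 other mesenchymal transcription factors 3 rose and 1 fell, with ID1 at 0.94, FOSL1 at 1.46 and FOSL2 at -0.50. Of 22 other integrins, cadherins and adhesion genes 4 rose and 3 fell, with the collagen-binding integrin ITGA2 at 0.81, CDH11 at 0.31 and ANXA6 at -0.85. The call of CDH11 ended without control replicate 1. Of 11 noradrenergic markers 3 rose (TBX2 at 1.07 and ISL1 at 0.38 among them) and 3 fell (CHGA at -0.47).

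Summed markers of epithelial, endothelial and blood cells were low, but those of fibroblasts were not. Of 10 fibroblast markers 9 are listed, POSTN was not analysed here, and their summed level was 515.0 and 508.7 CPM in the knockdown libraries, against 634.5 and 616.6 CPM in the controls. Of 9 tested 2 rose (LUM, at 0.60, among them) and 2 fell (PDGFRB at -0.44 and FBLN1 at -0.37). The call of FBLN1 ended without control replicate 1, and that of LUM without knockdown replicate 1 or control replicate 1. Summed epithelial markers were at 7.28 and 8.94 CPM in the knockdown libraries, against 9.24 and 11.4 CPM in the controls. Of 5 tested 1 fell: CDH1, with 2 and 1 counts in the knockdown libraries, against 11 and 20 in the controls. EPCAM (-0.94, edgeR adjusted p = 0.202) and KRT19 (-0.72, adjusted p = 0.268) were not called.

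Endothelial markers summed to 1.90 and 1.16 CPM in the knockdown libraries, against 2.42 and 1.95 CPM in the controls, and the one tested, CLDN5, was not called (-1.12, edgeR adjusted p = 0.0678). Blood cell markers summed to 27.9 and 31.4 CPM in the knockdown libraries, against 34.7 and 35.3 CPM in the controls, with CD14 (1.37) and CD68 (0.77) higher and CORO1A (-0.72) lower of 3 tested. The call of CD14, at 27 counts or fewer per library, ended without any single library, and that of CD68 without knockdown replicate 2. Fewer cells of a type and less RNA per cell cannot be told apart in these bulk libraries. The part of other cell types in the members' changes was not tested.

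The second comparison asked whether footprints of the same genes differed. No member of 39 tested was called in Ribo-seq (edgeR adjusted p below 0.05), where 7.96% of all 11853 genes were called higher and 0.607% lower. At an unadjusted p below 0.05, 5 members were higher and 4 lower, against 16.6% and 6.50% of all genes. DESeq2 called 1 member higher (ANXA1) and 2 lower (ACTB and TAGLN2), and limma-voom called 1 higher (ZEB1) and the same 2 lower. Standard errors of single members were 0.534 to 1.22 on the log2 scale, so most changes of the size seen in RNA were not detectable at this depth and spread.

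**Figure D3:**
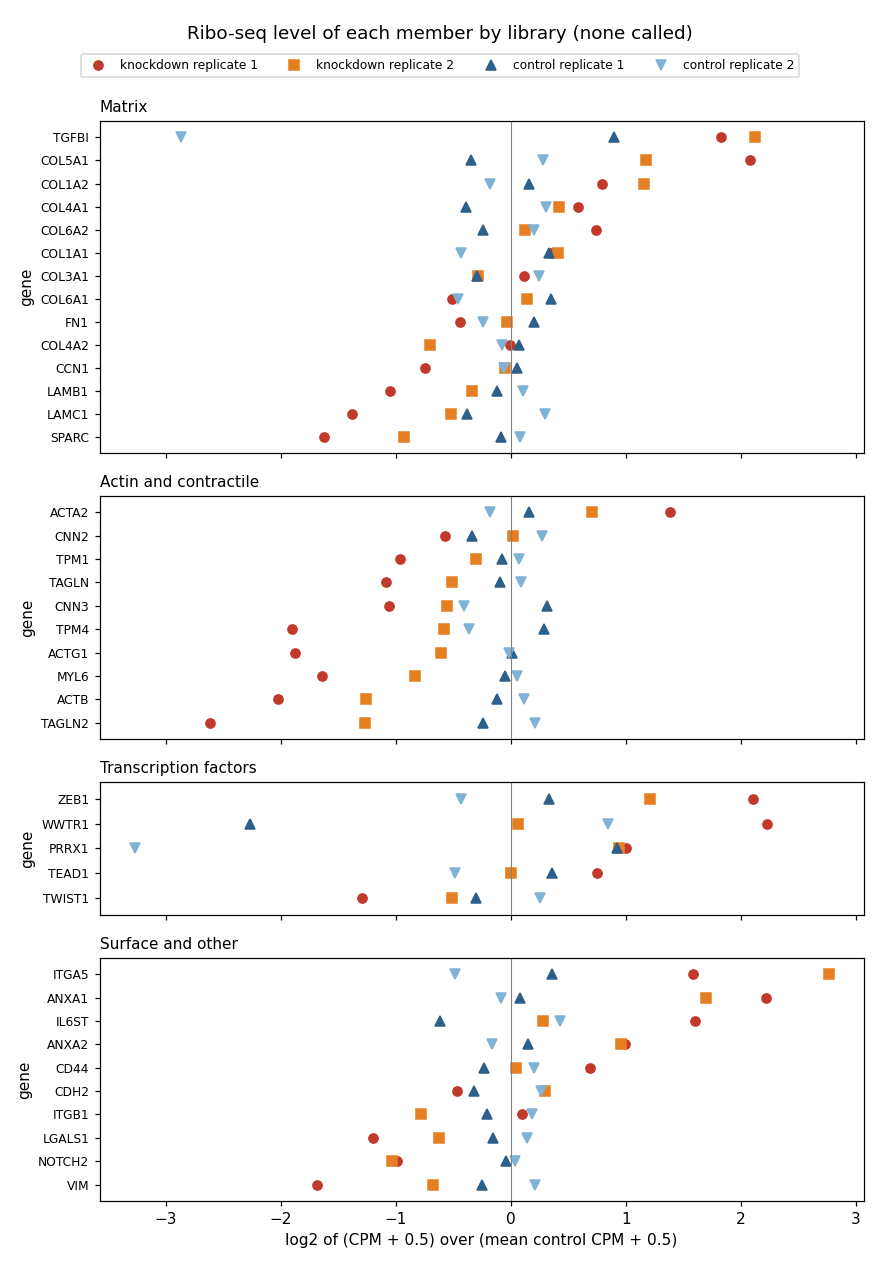
Ribo-seq level of each tested member in each library, as the log2 of its CPM over the mean of the 2 controls (0.5 added to both), with genes grouped by role. In 8 of 10 contractile genes both knockdown libraries lie left of both controls, with knockdown replicate 1 further left, and ACTA2 lies to the right.

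Contractile footprints had lower values in the knockdown, apart from ACTA2. Of 10 tested, 9 had a log2 fold change below 0, with a median of -0.95 against 0.04 over all genes. In 8 both knockdown libraries were below both controls, a separation that 26.7% of all genes showed. All of the 10 but ACTA2, TAGLN and CNN2 had at least 100 RNA CPM. Among all tested genes at that RNA level the median was -0.61, and 51.5% showed the separation. ACTB had 177.1 and 300.7 CPM in the knockdown libraries, against 662.9 and 780.9 CPM in the controls (-1.59, SE 0.630, edgeR adjusted p = 0.133). TAGLN2 had 18.3 and 47.2 CPM in the knockdown libraries, against 96.7 and 132.2 CPM in the controls (-1.80, SE 0.594, adjusted p = 0.0713). In both genes the knockdown libraries also lay far from each other. ACTA2 had 101.9 and 63.2 CPM in the knockdown libraries, against 43.3 and 34.0 CPM in the controls (1.09, SE 0.547, adjusted p = 0.246), so its footprints lay on the same side as its RNA. Without knockdown replicate 1 the contractile median was -0.57, with 8 of 10 below 0, and without knockdown replicate 2 it was -1.46.

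TPM1 and TAGLN, whose RNA rose, had footprint values on the other side. TPM1 had 52.8 and 83.8 CPM of footprints in the knockdown libraries, against 98.2 and 108.6 CPM in the controls (log2 fold change -0.60, edgeR adjusted p = 0.563). TAGLN had 21 and 53 footprint counts in the knockdown libraries, against 60 and 67 in the controls (-0.78, adjusted p = 0.505). Neither change was called. Both knockdown libraries were below both controls, as in 26.7% of all genes tested in Ribo-seq. Among genes with at least 100 RNA CPM, such as TPM1, 51.5% showed this.

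Abundant genes in general took a smaller share of the footprint counts in the knockdown libraries. Among all 2322 tested genes with at least 100 RNA CPM (scaled to total counts), the median Ribo-seq log2 fold change was -0.61, and in 51.5% both knockdown libraries were below both controls. Of 22 members in that range, 13 showed this separation, and their median was -0.72. In this class knockdown replicate 1 was the lowest of the 4 libraries for 15 of 22 members, and knockdown replicate 2 was below both controls for 15 of 22. The part of this general shift in the members' footprint values was not tested.

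Matrix footprints were split, with 6 of 14 members above 0 and 8 below, and a median log2 fold change of -0.11. SPARC had 41.2 and 66.7 CPM in the knockdown libraries, against 120.2 and 135.3 CPM in the controls (-1.24, SE 0.549, edgeR adjusted p = 0.183), on the side of its RNA. COL5A1 had 117 and 103 counts in the knockdown libraries, against 29 and 45 in the controls (1.73, SE 0.606, adjusted p = 0.0878). The laminins LAMB1 (-0.65, adjusted p = 0.532) and LAMC1 (-0.89, adjusted p = 0.377), whose RNA rose, had lower footprint values in both knockdown libraries than in both controls. Of all tested genes with at least 100 RNA CPM, the class of both laminins, 51.5% showed this. TGFBI had 49 and 100 counts in the knockdown libraries, against 35 and 1 in the controls (2.07, SE 0.911, adjusted p = 0.179), so its value turns on control replicate 2. Without knockdown replicate 1 the matrix median was 0.06.

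Among the transcription factors, footprint values lay on both sides of 0 and none was called. TWIST1 had 119 and 342 counts in the knockdown libraries, against 331 and 480 in the controls (log2 fold change -0.85, edgeR adjusted p = 0.395). ZEB1 had 167 and 148 counts in the knockdown libraries, against 67 and 38 in the controls (1.75, SE 0.589, adjusted p = 0.0762), while its RNA was not called. TEAD1 had 94 and 92 counts in the knockdown libraries, against 100 and 54 in the controls (0.42, adjusted p = 0.727). WWTR1 had 42 and 14 counts in the knockdown libraries, against 1 and 21 in the controls, and YAP1 and SNAI2 had at most 15 and 10 in a library and were not tested. The median of the 5 tested was 1.04, against 0.04 over all genes. It is the value of PRRX1, which had almost no RNA and 22 and 35 footprint counts, against 29 and 0. All tested genes under 1 RNA CPM, the class of PRRX1, had a median of 2.21, and those at 1 to 10, the class of WWTR1, 1.28. Without knockdown replicate 1 the median was 0.41 over 6, against -0.005 over all genes.

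Some members with almost no RNA had footprint counts. ANXA1 had 77 and 88 counts in the knockdown libraries, against 23 and 20 in the controls (log2 fold change 2.05, SE 0.635, edgeR adjusted p = 0.0538). COL1A2 had 144 and 309 counts in the knockdown libraries, against 129 and 100 in the controls (1.00, adjusted p = 0.284). PRRX1 had 22 and 35, against 29 and 0, and CAV1 had 2 and 38, against 8 and 5. Genes under 1 RNA CPM in general had a median of 9.88 and 5.26 footprint CPM (of total counts) in the knockdown libraries, against 2.41 and 1.39 in the controls. In 67.6% of the 731 such genes tested both knockdown libraries were above both controls. On that scale ANXA1 was at 29.3 and 20.1 CPM in the knockdown libraries, against 7.93 and 6.18 in the controls. Whether these counts are footprints of the named genes was not tested.

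The 10 surface and other members tested had a median footprint log2 fold change of 0.19, and of 0.31 over 11 without knockdown replicate 1. NOTCH2 had 65 and 104 footprint counts in the knockdown libraries, against 176 and 183 in the controls (log2 fold change -1.02, edgeR adjusted p = 0.267), on the side of its RNA. VIM had 82 and 275 counts in the knockdown libraries, against 312 and 423 in the controls (-1.10, adjusted p = 0.260), and its RNA did not separate the groups. Of all tested genes with at least 100 RNA CPM, the class of VIM, 51.5% had both knockdown libraries below both controls, with a median of -0.61. CDH2 had 140 and 395, against 216 and 318 (-0.03, adjusted p = 0.985). ITGA5 had 10 and 40 counts in the knockdown libraries, against 5 and 2 in the controls (2.72, SE 1.22, adjusted p = 0.189), a fold that rests on few counts. ANXA2 had 91 and 147 counts in the knockdown libraries, against 70 and 55 in the controls (0.99, adjusted p = 0.304). LGALS1 (-0.89), ITGB1 (-0.28), IL6ST (1.14) and CD44 (0.41) were not called either.

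**Figure D4:**
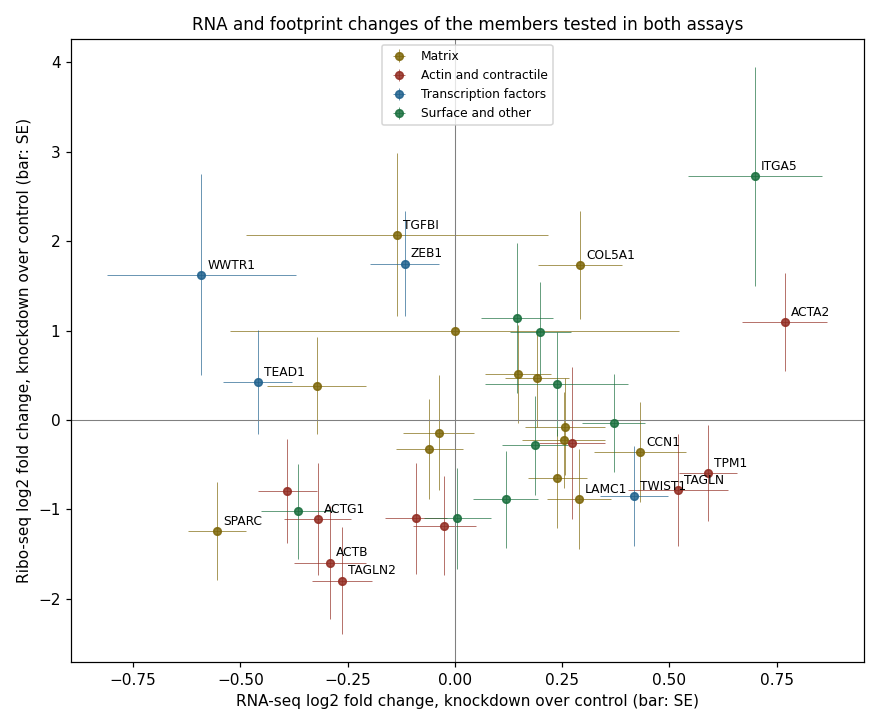
RNA-seq log2 fold change (horizontal) against Ribo-seq log2 fold change (vertical), knockdown over control, for the 37 members tested in both, with standard errors as bars and colour by role. ACTA2 and ITGA5 lie at the upper right, SPARC, ACTB and TAGLN2 at the lower left, and TPM1, TAGLN and TWIST1 at the lower right.

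Signs of the RNA and footprint changes matched in 18 of 37 members. Of 13 members called higher in RNA, 9 had a footprint log2 fold change below 0, and of 8 called lower, 6 did. Over all 11853 genes tested in Ribo-seq, 5775 were below 0. Among those with at least 100 RNA CPM the median footprint change was -0.61. The share of matching signs over all genes was not computed. Footprints per RNA (translational efficiency), tested as the interaction of assay and knockdown, passed for no member of 37 (edgeR), against 2.90% of all 10648 genes higher and 1.35% lower. At an unadjusted p below 0.05, 4 were higher and 8 lower, against 13.8% and 12.9% of all genes. DESeq2 called 1 higher (ZEB1, 1.87) and 3 lower (ACTB, TAGLN and TPM1). The contractile median was -1.07 against -0.06 over all genes. It was -0.64, against -0.08, without Ribo-seq knockdown replicate 1, and -1.67, against -0.25, without Ribo-seq knockdown replicate 2. In genes with at least 100 RNA CPM it was -0.55 over all genes and -0.73 over the 22 members.

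The smallest adjusted p of this test were those of ZEB1 (log2 change 1.86, SE 0.515, adjusted p = 0.0713) and TPM1 (-1.18, SE 0.369, adjusted p = 0.0938). TWIST1 (-1.26, adjusted p = 0.124) and MYL6 (-1.15, adjusted p = 0.119) were not called either. Without Ribo-seq knockdown replicate 2, 3 members were called higher and 14 lower, and without Ribo-seq knockdown replicate 1, none higher and 2 lower (ACTB and TPM1), so the number of calls turns on which knockdown library is kept. Without Ribo-seq control replicate 1 TGFBI and ZEB1 were called higher.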

How the data were processed

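The authors deposited a table of raw whole-number counts by gene symbol for each assay. Per the labels' protocols, RNA-seq used a stranded total RNA kit, and Ribo-seq used cycloheximide lysates, RNase I, size-column monosomes and rRNA depletion. Trim Galore, Salmon, Bowtie2, STAR, featureCounts and hg38 are named per the submitters' processing notes, and the sources used here give neither their roles and versions nor any limit to coding exons. Counts in introns, or of small RNAs inside a gene, could therefore be counted as footprints.

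Each assay was tested on all genes with edgeR 4.0.16 (R 4.3.3; quasi-likelihood F test, TMM, filterByExpr, Benjamini-Hochberg, threshold 0.05). Translational efficiency was the assay-by-knockdown interaction over all 8 libraries. SE is the absolute log2 fold change over the square root of F. Alternatives used RLE, DESeq2 1.42.0, limma-voom 3.58.1, other filters, the replicate block, a 1.5-fold threshold, the 4 most counted Ribo-seq genes left out, and each library left out. Scripts were tested on simulated data. The members, roles and 13 lists were chosen with earlier results of these data known. Named genes are RPS29, all members, and the 3 of each list with the smallest RNA-seq p; neighbours, copies, family ratios and the promoters shown were added after their values were seen, and 1 gene that the rule names is not reported here. All 45 members matched RefSeq (GRCh38.p14), the source of positions and promoters.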

Additional observations from a re-analysis of the deposited data

How the results depend on the processing

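Each group had 2 libraries. Leaving out 1 library in turn gave 6 to 19 members higher and 4 to 8 lower, with 0 to 7 higher and 1 to 2 lower for matrix, 3 to 5 higher and 1 to 4 lower for contractile, and 2 to 6 higher for surface genes. It gave 0 to 2 higher and 0 to 1 lower in Ribo-seq, and 0 to 3 higher and 0 to 14 lower in translational efficiency. Against a 1.5-fold change 0 members were called in any role. A filter of at least 50 counts gave 2 transcription genes lower in RNA-seq and 1 member higher in Ribo-seq (ZEB1), where it moved the median of all genes by 0.32. DESeq2 gave 1 matrix gene lower, as did no count filter (COL1A1 adjusted p = 0.126 and 0.0518), and in Ribo-seq 1 member higher and 2 lower, as did limma-voom. For translational efficiency DESeq2 gave 1 higher and 3 lower.

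The replicate numbers were tried as a block. The replicate differences correlated at -0.064 in RNA-seq and 0.109 in Ribo-seq, and no label says what a number shares, so the numbers were not taken to pair the libraries. With the block 4 members were lower in RNA-seq, with 3 matrix genes higher, 1 matrix gene lower and 1 contractile gene lower, and in Ribo-seq 4 members were higher and 2 lower. The causes were not tested.

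Every sign that reversed in these alternatives belonged to a value that was not called. In RNA-seq COL1A2 was at 0.000701 with RLE factors, 0.0968 with limma-voom and 0.0378 with the block. With at least 50 counts, Ribo-seq values were 0.0943 for FN1, 0.29 for COL3A1, 0.0351 for COL4A2, 0.0886 for ITGB1 and 0.28 for CDH2, and translational efficiency was 0.0200 for COL3A1 and 0.0719 for COL4A2. Leaving out 1 library in turn, the log2 fold changes whose sign reversed ranged, in RNA-seq, from -0.46 to 0.67 for COL1A2, -0.13 to 0.00982 for COL4A2, -0.12 to 0.0439 for COL6A1, -0.33 to 0.0882 for TGFBI, -0.11 to 0.0542 for MYL6, -0.0507 to 0.20 for SNAI2, -0.0581 to 0.0680 for VIM and -0.0423 to 0.48 for CD44. In Ribo-seq they ranged from -0.36 to 0.18 for COL3A1, -0.61 to 0.30 for COL6A1, -0.69 to 0.0840 for CNN2, -0.78 to 0.0239 for ITGB1 and -0.54 to 0.31 for CDH2. In translational efficiency they ranged from -0.57 to 0.37 for COL6A1, -0.0586 to 0.49 for COL6A2, -0.0484 to 0.55 for ACTA2 and -0.18 to 0.45 for CD44.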
